A study of Felis catus with 3 samples.

Results

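The vacuolar proton ATPase (V-ATPase) is described here through 3 of its subunit genes, ATP6V0C, ATP6V1G1 and ATP6V1F, in feline adipose-derived mesenchymal stem cells (ASCs). The genes were taken from a list of symbols and matched to Ensembl identifiers through the symbol column of the study's full gene table. They are 3 of the 21529 genes measured and 3 of the 1811 genes with a symbol in the rows of that table available here. Of the 26 V-ATPase subunits and accessory proteins sought (13 of the V0 domain and 13 of the V1 domain), 1 V0 gene and 2 V1 genes had a known identifier. The other subunits were not analysed here.

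The V-ATPase is a rotary pump that spends ATP to move protons into lysosomes, endosomes and secretory vesicles. The V0 domain lies in the membrane and holds the ring through which protons pass, and the V1 domain lies in the cytosol and hydrolyses ATP. Both are needed for acidification, and cells control the pump in part by joining and separating them. Acid lysosomes allow hydrolases to work, and the same membrane carries the nutrient-sensing complex that recruits the kinase MTOR.

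The samples were 3 feline ASC cultures labelled Gray Boy, Luna and SPF2, named here feline ASC 1, 2 and 3 in the order of the sample records. All were untreated primary cultures of 1 cat each, at passages 3 to 4, in MEMα with 10% fetal bovine serum, and the labels give no age or genotype. The study took fat from specific pathogen-free (SPF) and client-owned cats, and apart from the name SPF2 the labels give no origin. Each culture had 1 strand-specific mRNA library, so the spread between lines joins that of cats, cultures and libraries, which cannot be told apart. Nothing is known of repeat libraries. Values are FPKM, that is, fragments counted for a gene after division by transcript length and by library size. Comparisons between genes therefore rest on the transcript lengths of the annotation, which were not checked here. How many fragments each value rests on is not known. The values summed to 621797, 688297 and 636464 FPKM in feline ASC 1, 2 and 3. Of the 4 stromal markers listed, only 1, ENG (CD105), had a known identifier, and it was at 72.5 to 117 FPKM. Of the 10 leukocyte and endothelial markers listed, 6 had a known identifier, and these reached at most 1.03 FPKM, with CD2 listed at 0 in every line.

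All 3 subunits were transcribed in every line, and the order of their levels was the same in every line. ATP6V0C of the membrane domain was highest, ATP6V1G1 of the peripheral domain followed closely, and ATP6V1F, also of the peripheral domain, was several times lower. All 3 genes were at or above 15 FPKM in every line, the level the study calls moderate, which 22.1% of all genes reached. ATP6V0C and ATP6V1G1 were also at or above 100 FPKM in every line, as were 3.59% of all genes.

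ATP6V0C (ENSFCAG00000001961) encodes the proteolipid c subunit, the small hydrophobic protein that is repeated around the V0 ring and carries the protons. Its locus lies on chromosome E3 from 40917939 to 40922232 in the cat assembly Felis Catus 8.0. Its level was 209, 242 and 217 FPKM in feline ASC 1, 2 and 3, a mean of 223 ± 17.2 FPKM (SD, n = 3 lines). Feline ASC 2 was highest and the other two lines lay close together. Between 370 and 390 genes were above it in each line, and 98.2 to 98.3% of all genes were below.

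ATP6V1G1 (ENSFCAG00000000160) encodes a G subunit, which pairs with an E subunit in the peripheral stalks that hold the ATPase head still against the turning rotor. Its locus lies on chromosome D4 from 76568530 to 76575173. The level was 194, 180 and 174 FPKM in feline ASC 1, 2 and 3, a mean of 183 ± 10.3 FPKM (SD, n = 3 lines), highest in feline ASC 1. As deposited, it had the smallest spread of the 3 subunits, with a coefficient of variation of 5.65% between lines against 7.72% for ATP6V0C. The order of ATP6V1G1 and ATP6V0C reversed under other scalings of the libraries. With equal library totals, the highest ATP6V1G1 value was 1.19 times the lowest, against 1.05 times for ATP6V0C. With quantile normalization these values were 1.18 and 1.04. Between 423 and 500 genes were above ATP6V1G1, and 97.7 to 98.0% of all genes were below.

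ATP6V1F (ENSFCAG00000000364) encodes the F subunit of the central rotor shaft, which joins the ATPase head to the V0 ring. Its locus lies on chromosome A2 from 145309667 to 145312464. Transcript levels were 46.1, 34.5 and 38.0 FPKM in the same order of lines, a mean of 39.5 ± 5.93 FPKM (SD, n = 3 lines). Here feline ASC 1 was highest and feline ASC 2 lowest, the reverse of ATP6V0C, and the coefficient of variation was 15.0%. Between 2031 and 2744 genes were above it, and 87.2 to 90.6% of all genes were below.

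**Figure D1:**
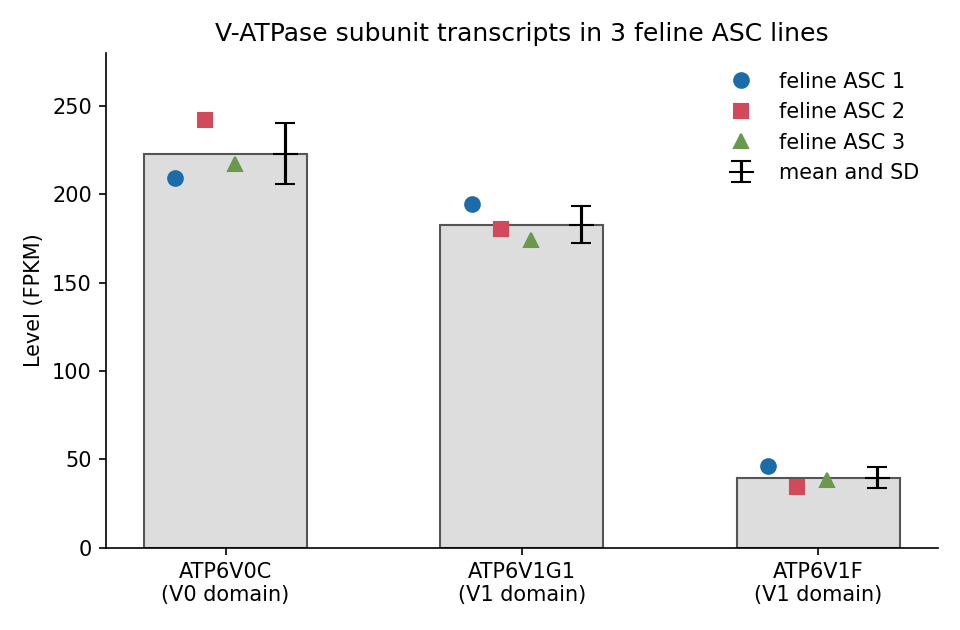
Level in FPKM (vertical axis) of the V-ATPase subunits ATP6V0C, ATP6V1G1 and ATP6V1F in feline ASC 1, 2 and 3 (points), with bars at the mean of the 3 lines and error bars of 1 SD. ATP6V0C sits at 209 to 242 FPKM, ATP6V1G1 at 174 to 194 FPKM and ATP6V1F at 34.5 to 46.1 FPKM, and no ranges overlap.

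The membrane and peripheral subunits were then compared within each line, where both genes are read from the same library. ATP6V0C was 1.08 times the level of ATP6V1G1 in feline ASC 1, 1.34 times in feline ASC 2 and 1.25 times in feline ASC 3 (mean 1.22 ± 0.14, SD, n = 3 lines). It was higher in 3 of 3 lines, and the ranges of the 2 genes did not overlap. The gap between the lowest ATP6V0C value and the highest ATP6V1G1 value was 14.8 FPKM, less than the SD of ATP6V0C.

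Against ATP6V1F, ATP6V0C was 4.54, 7.02 and 5.72 times higher in feline ASC 1, 2 and 3 (mean 5.76 ± 1.24, SD, n = 3 lines). ATP6V1G1 was 4.22, 5.23 and 4.58 times higher than ATP6V1F in the same order (mean 4.67 ± 0.51). The pair of V1 genes thus lay farther apart from each other than ATP6V0C did from ATP6V1G1, in every line. Compared with the mean of both V1 genes, ATP6V0C was 1.74, 2.25 and 2.05 times higher in feline ASC 1, 2 and 3.

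On the log2(FPKM + 1) scale the differences were 0.28 ± 0.16 for ATP6V0C minus ATP6V1G1, 2.47 ± 0.31 for ATP6V0C minus ATP6V1F and 2.19 ± 0.15 for ATP6V1G1 minus ATP6V1F (SD, n = 3 lines, exact paired permutation test, two-sided, p = 0.25 for each). This is the smallest p that 3 lines allow, and the Benjamini-Hochberg adjusted p over the 3 comparisons was also 0.25, so none could pass a threshold of 0.05. All 3 mean differences were larger than their own SD, which over 3 lines is a description and not a test. How reads shared with related sequences, such as other G subunit genes, were divided in the quantification is not given in the sources used here.

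**Figure D2:**
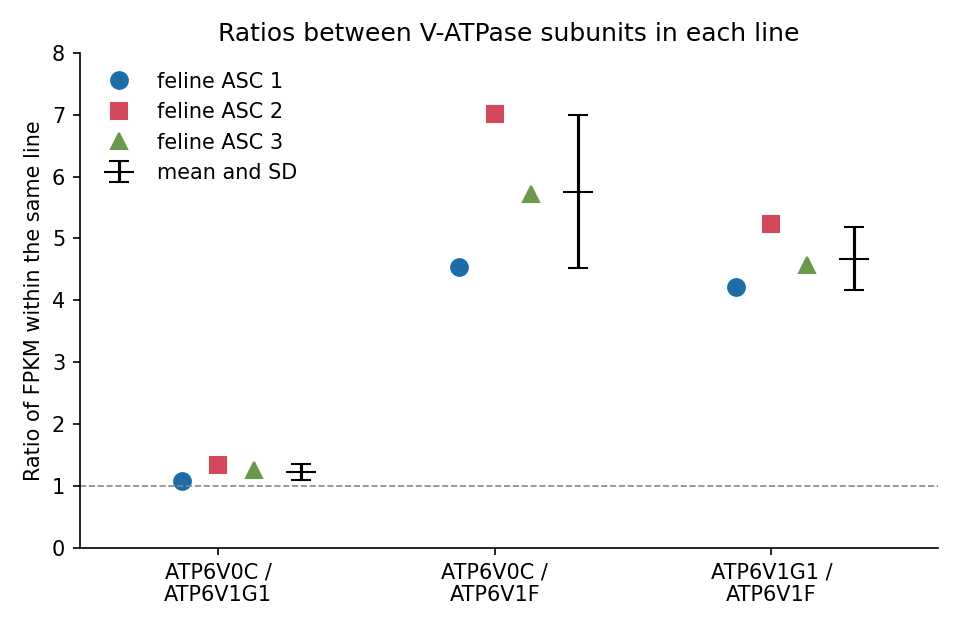
Ratio of FPKM values between V-ATPase subunits within the same line (vertical axis) for 3 pairs of genes in feline ASC 1, 2 and 3 (points), with the mean and SD beside them. The dashed line marks equal levels, and both ratios over ATP6V1F are highest in feline ASC 2, at 7.02 and 5.23.

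The ratio of ATP6V0C to ATP6V1F changed by 1.55 times between lines, and the 2 genes were highest in different lines. How much of this change belongs to each gene depends on the library scale. With every library scaled to the same total, the highest value was 1.05 times the lowest for ATP6V0C and 1.48 times for ATP6V1F. The values that follow are as deposited. ATP6V0C was lower in feline ASC 1 than in feline ASC 2 by a ratio of 0.863, whereas ATP6V1F was higher by a ratio of 1.34 and ATP6V1G1 by 1.08. From feline ASC 3 to feline ASC 2, ATP6V0C was 1.11 times and ATP6V1G1 1.04 times as high in feline ASC 2, and ATP6V1F was 0.907 times as high. Feline ASC 1 was the highest line for both V1 genes and for 28.1% of the genes at or above 15 FPKM in every line, and feline ASC 2 was the highest for ATP6V0C and for 43.4% of those genes. With 1 library per line, these differences between lines could not be tested.

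The size of these differences was read against all 4755 genes at or above 15 FPKM in every line. The span between the highest and lowest line, on the log2(FPKM + 1) scale, was 0.21 for ATP6V0C, 0.16 for ATP6V1G1 and 0.41 for ATP6V1F. The median span of the 4755 genes was 0.26, with quartiles at 0.15 and 0.45. A span at least as wide as that of ATP6V1F was found for 28.7% of these genes, compared with 60.2% for ATP6V0C and 73.0% for ATP6V1G1. Leaving out the highest or the lowest line always narrows a span. The narrowest were 0.056 for ATP6V0C without feline ASC 2, and 0.052 for ATP6V1G1 and 0.14 for ATP6V1F without feline ASC 1. The span of ATP6V1G1 also fell to 0.11 without feline ASC 3, and that of ATP6V1F to 0.27 without feline ASC 2.

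ATP6V1F therefore varied more than the median gene between lines, and ATP6V0C and ATP6V1G1 varied less. None of the 3 subunits (0 of 3) differed 2-fold or more between lines, as 5.19% of the 4755 genes did. Among the 1796 genes within 1.5 times of the mean level of ATP6V1F, 30.3% had a span at least as wide, so its position was similar among genes of its own level. For the 333 genes around ATP6V0C this share was 67.6%, and for the 438 genes around ATP6V1G1 it was 77.9%.

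**Figure D3:**
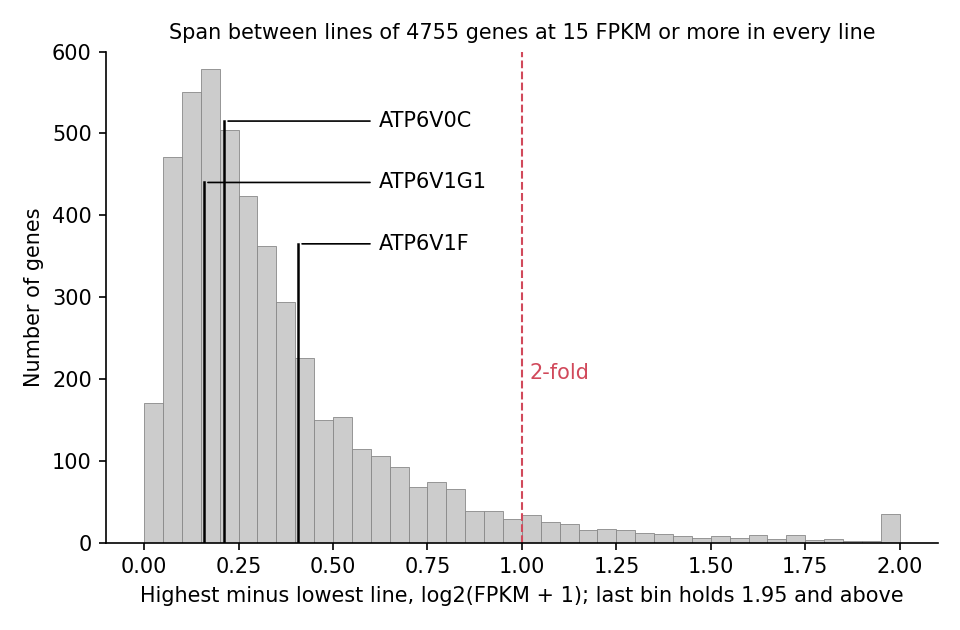
Number of genes (vertical axis) by the span between the highest and lowest line on the log2(FPKM + 1) scale (horizontal axis), for the 4755 genes at 15 FPKM or more in every feline ASC line. Black lines mark ATP6V1G1 at 0.16, ATP6V0C at 0.21 and ATP6V1F at 0.41, all left of the dashed line at a 2-fold span, and the last bin gathers all wider spans.

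The scale of the libraries touched these spans. With every library scaled to the same total of 1000000, the median of the 4755 genes in feline ASC 1 relative to feline ASC 2 moved from -0.03 to 0.11 on the log2 scale. The highest ATP6V0C value was then 1.05 times the lowest (1.16 times as deposited), that of ATP6V1G1 was 1.19 times (1.12) and that of ATP6V1F was 1.48 times (1.34). ATP6V0C stayed highest in feline ASC 2 and ATP6V1F stayed lowest there, and the lowest line for ATP6V1G1 became feline ASC 2 in place of feline ASC 3. Ratios between genes of 1 line are not changed by such a rescaling.

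Genes near the subunits were read from the same table. Its available rows held 1997 genes, whereas 21529 were measured, so closer loci may not have been seen. No locus in the available rows overlapped a subunit gene. FLNC, which encodes the actin cross-linker filamin C, ended 5095 bp before ATP6V1F and was at 201, 247 and 203 FPKM in feline ASC 1, 2 and 3, highest in the line in which ATP6V1F was lowest. IRF5, which encodes an interferon regulatory factor, started 58256 bp after ATP6V1F and was at 4.23, 2.33 and 3.10 FPKM, the same order of lines as ATP6V1F. The nearest locus to ATP6V0C in the available rows was ENSFCAG00000001962, which has no symbol here and ended 725 bp before it. This locus was at 32.9, 16.8 and 29.4 FPKM, lowest in feline ASC 2, where ATP6V0C was highest. C9orf91, 12891 bp after ATP6V1G1, was at 6.45 to 9.82 FPKM.

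For each subunit, the genes with the most similar pattern over the 3 lines were sought among 549 other genes with a symbol and at least 15 FPKM in every line. Likeness was the Euclidean distance between log2(FPKM + 1) values centred on the mean of the lines. Over only 3 lines a close match is common, and the distances are given as a description. ATP6V0C was matched most closely by C8orf48 (distance 0.0048), GHITM (0.010) and TRPC4AP (0.011). ATP6V1G1 was matched by PLIN2 (0.0047), which encodes a lipid droplet coat protein, INTS3 (0.0093) and HDHD2 (0.026). ATP6V1F was matched by ACSS2 (0.0057), which encodes an acetyl-CoA synthetase, C9orf142 (0.011) and STOML2 (0.057).

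The mitochondrial ATP synthase (F-type ATPase) is the rotary relative of the V-ATPase, and 3 of its 17 listed genes had a known identifier. ATP5G1 and ATP5G2 encode its proteolipid c subunit, the counterpart of ATP6V0C, and ATP5C1 encodes the gamma subunit of its rotor shaft. A further listed gene of the c subunit, ATP5G3, had no known identifier and was not read. ATP5G2 was at 350, 381 and 370 FPKM in feline ASC 1, 2 and 3, and thus 1.57 to 1.70 times as high as ATP6V0C. ATP5G1 was at 93.7, 92.0 and 99.9 FPKM, below ATP6V0C in every line. The shaft gene ATP5C1 was at 133, 134 and 139 FPKM, which was 2.89 to 3.89 times the level of ATP6V1F. Both are genes of a rotor shaft, but they are not set side by side here as counterparts of each other.

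Thus ATP6V0C was above the shaft gene ATP6V1F in every line. Of the ATP synthase proteolipid genes read here, ATP5G2 was above the shaft gene ATP5C1 and ATP5G1 was below it in every line. The summed ATP5G1 and ATP5G2 level, which leaves out ATP5G3, was 3.34, 3.53 and 3.38 times that of ATP5C1. The highest value of this ratio was 1.06 times its lowest. For ATP6V0C over ATP6V1F the highest ratio was 1.55 times the lowest. With 3 lines, this difference in spread was not tested.

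Of the other genes around the V-ATPase, only TM9SF4 of the 14 listed for assembly and regulation had a known identifier. This multispanning membrane protein, which has been linked to V-ATPase assembly, was at 46.1, 51.0 and 45.3 FPKM in feline ASC 1, 2 and 3, highest in feline ASC 2 as was ATP6V0C. In the nutrient-signalling list 5 of 24 genes were known. TFE3, a transcription factor of the family that switches on lysosomal and V-ATPase genes, was at 40.9, 37.4 and 41.6 FPKM, and MTOR at 12.3, 14.3 and 12.3 FPKM. In the ion transport list 7 of 20 genes were known, with the lysosomal transporter MFSD12 highest at 37.6, 50.2 and 46.6 FPKM. The chloride-proton exchangers CLCN3 and CLCN6, whose chloride flow can balance the charge that the pump moves, were at 7.83 to 11.1 FPKM and 7.65 to 8.09 FPKM.

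The lysosomal enzymes and membrane proteins, which work in the acid that the V-ATPase makes, were the longest list, with 14 of 52 genes known and reported. Feline ASC 2 was the lowest line for 11 of these 14 genes, and for 36.5% of the 13347 genes above 0 in every line. Of the 10 list genes at or above 15 FPKM in every line, 9 were lowest in feline ASC 2, against 34.4% of all genes at this level. The median deviation of the 14 genes in feline ASC 2 from the mean of the lines was -0.19 on the log2(FPKM + 1) scale, and that of the 13347 genes was 0.01.

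CTSA, a lysosomal carboxypeptidase, had the highest mean of this list, at 158, 112 and 178 FPKM in feline ASC 1, 2 and 3. CTSZ, another lysosomal carboxypeptidase, was at 113, 78.8 and 182 FPKM, and SCARB2, a lysosomal membrane protein and sorting receptor, at 40.7, 19.2 and 32.3 FPKM. These last genes were the 2 of the 10 that differed 2-fold or more between lines, compared with 5.19% of the 4755 genes at this level. Below this level, SIAE had the widest span of the list, at 3.01, 4.72 and 1.30 FPKM in feline ASC 1, 2 and 3. ARSG had the lowest mean of the list, at 0.496, 1.19 and 0.760 FPKM, and both genes were highest in feline ASC 2. Of the subunits, ATP6V1F shared the low position of feline ASC 2 and ATP6V0C was highest there. The lists were short and chosen with values of these genes known, so nothing particular to lysosomal genes is claimed from these counts.

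**Figure D4:**
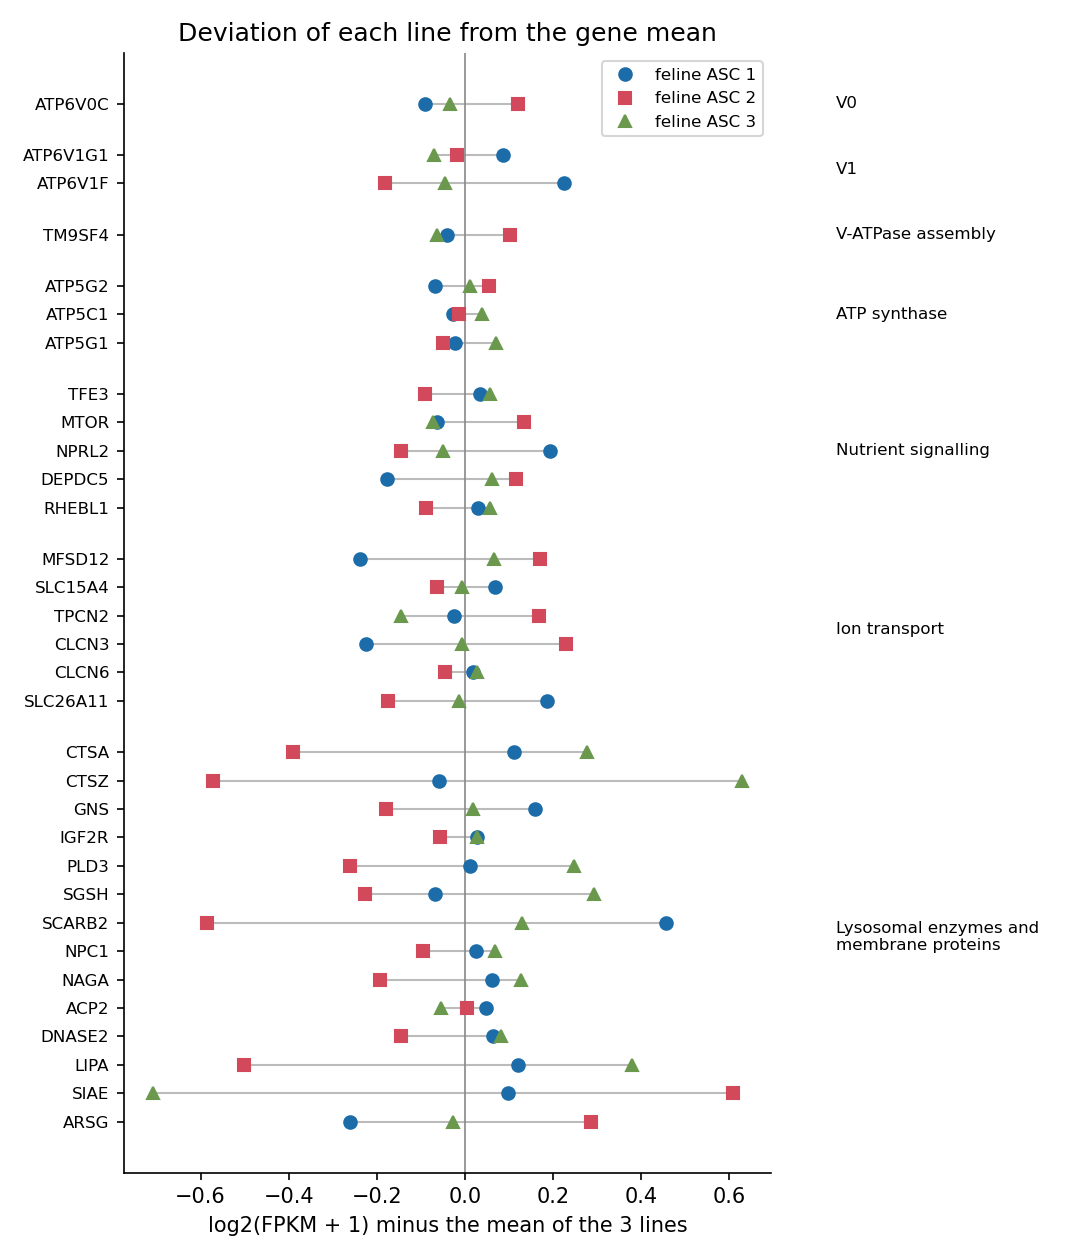
Deviation of each line from the gene's mean on the log2(FPKM + 1) scale (horizontal axis) for the 32 genes of the V-ATPase, ATP synthase, nutrient-signalling, ion transport and lysosomal lists with a known identifier and values above 0 in every line. Points stand for feline ASC 1, 2 and 3, and feline ASC 2 is the leftmost point for 11 of the 14 lysosomal genes and for ATP6V1F, and the rightmost for ATP6V0C.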

How the data were processed

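Strand-specific, poly-adenylated mRNA libraries (200 ng of total RNA) of 3 feline ASC cultures were sequenced as paired reads. The authors used HISAT for alignment to Felis Catus 8.0 and Cufflinks for gene quantification, and deposited FPKM per gene as normalized by Cuffnorm. Versions, annotation release and library scaling method are not given in the sources used here. All 21529 genes had the status OK.

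Members, gene lists and the rule for named genes were chosen with earlier results of these data known. Named genes were the members, list genes with a known identifier, the 3 closest patterns per member and the nearest loci. The reference table for a later cat assembly paired 0 of its 39307 genes with Ensembl identifiers and added none. A listed lysosomal gene is not reported here, for a reason that does not depend on its values, and the lysosomal counts cover only the genes reported. No filter on low values was used except where stated. Ranks, ratios, spans on log2(FPKM + 1) and exact tests were obtained in scipy 1.17.1 and numpy 2.4.6, tables were read in pandas 2.3.3 (Python 3.11.15) and figures were drawn in matplotlib 3.10.9. The span calls were tested on simulated data in which the changes were wider than 2-fold. This does not bear on narrower spans such as those of the members. The study's methods give only an approximate number of reads per sample, and the mapped fragments per library are not given in the sources used here. Among genes under 0.15 FPKM the commonest ratio of feline ASC 1 to 2 was 0.910 (within 1% in 22.2% of 663 genes), as if 1 fragment were worth less in feline ASC 1. Against feline ASC 3, feline ASC 1 gave 1.28 (12.5% of 784 genes) and feline ASC 2 gave 1.40 (10.8% of 702). Alternatives were the pseudocount, rescaling (TPM), quantile normalization, thresholds, gene background and leaving out each line.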

Additional observations from a re-analysis of the deposited data

How the results depend on the processing

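The order ATP6V0C, ATP6V1G1, ATP6V1F kept its direction in all 3 pairs under every pseudocount, scaling and line left out, with log2 differences of 0.21 to 0.37, 2.32 to 2.63 and 2.11 to 2.26 when each line was left out. Exact tests with 2 or 3 lines cannot pass 0.05, so these say nothing of significance. The count of members stayed at 3 for 15 FPKM and 2 for 100 FPKM under every alternative. Rescaling to a sum of 1000000 raised the mean levels to 343 (ATP6V0C), 283 (ATP6V1G1) and 61.3 (ATP6V1F), and set the log2 spans of ATP6V0C and ATP6V1G1 to 0.065 and 0.25. Quantile normalization set the spans of ATP6V0C and ATP6V1G1 to 0.051 and 0.24. ATP6V1G1 thus had the wider span under both scalings, and the narrower span as deposited. Leaving out each line gave mean levels of 213 to 230, 177 to 187 and 36.3 to 42.1 FPKM, and log2 spans of 0.056 to 0.21 (ATP6V0C), 0.052 to 0.16 (ATP6V1G1) and 0.14 to 0.41 (ATP6V1F), because fewer lines were compared. The lowest spans were found without feline ASC 2, 1 and 1. The mean percentiles over all genes (98.2, 97.8 and 88.8) became 97.1, 96.5 and 82.0 among genes above 0 in every line, and 98.1, 97.6 and 85.0 among genes with a symbol. The number of lysosomal genes lowest in feline ASC 2 (11 of 14) was 12 after rescaling and 11 after quantile normalization, alternatives chosen after seeing the data. The share of all genes lowest in feline ASC 2 was not counted under these alternatives. Rescaling itself moved the median of the 4755 genes in feline ASC 1 relative to feline ASC 2 from -0.03 to 0.11 (log2). The 12 cannot be told apart from that shift. The medians over V0 and V1 genes could not be recomputed with more subunits, because the reference table added no identifier. Groups could not be paired because there is 1 group, and the pairs tested were subunits within a line. The number of mapped fragments behind each value is unknown, and no interval for counting error is given.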
